A study of Homo sapiens with 18 samples.

Results

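The genes described here are 42 interferon-stimulated genes (ISGs), taken by symbol from the 56609 gene symbols of the count table of the chronic lymphocytic leukemia (CLL) cell lines HG3, MEC2, and PCL12. The list was given by name and its rule used no measured value, but it was drawn up with earlier results of these data known. All 42 symbols were found, and all 42 were among the 31872 genes tested, for which the sum over all 18 libraries had to reach 10 counts. A mean of at least 1 CPM (counts scaled to library size) over the libraries was reached by 41 of the 42, the exception being RSAD2.

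Type I and type III interferons bind cell surface receptors and activate the kinases JAK1 and TYK2. The kinases in turn activate the transcription factor complex ISGF3, which binds a short DNA element, the interferon-stimulated response element (ISRE), upstream of ISGs and activates their transcription. Most products of these genes act against viruses: they sense or degrade viral RNA, block viral entry or budding, or attach the ubiquitin-like protein ISG15 to other proteins. TLR9, the endosomal receptor for DNA with unmethylated CpG motifs, signals through MYD88 to NF-κB, and in specialized cells also to the interferon genes through IRF7.

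HG3, MEC2, and PCL12 are Epstein-Barr virus-positive CLL lines, with mutated IGHV genes in MEC2 and unmutated IGHV genes in the other two, as described in the study. Each line was sequenced in 3 replicates without stimulation and in 3 replicates after 4 h with 2.5 μg/ml of CpG ODN-2006, a class B oligonucleotide that activates human TLR9, which gave 18 libraries in 6 groups. Each replicate number of a line holds 1 stimulated and 1 unstimulated sample, and nothing in the sources used here says that the numbers were separate cultures, so the P values measure the spread between these samples, which may be technical. The files hold read counts per gene, and levels are given as CPM scaled with TMM factors.

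Letters that ISGF3 binds were found in promoters of some members and not of others. RefSeq promoter sequences (GRCh38.p14, from upstream of each start to just past it) were matched for 34 of the 42 members, with 48 promoters in all. The ISRE core GAAANNGAA, searched on both strands, was found in 32 of these 48 promoters (66.7%), in 26 members, beside 2847 of all 35116 promoters (8.11%). The same letters followed by ACT were found in 20 of 48 promoters (41.7%), in 17 members, beside 96 of all promoters (0.273%). The letters TTCNNNGAA, the gamma-activated site (GAS), were found in 12 of 48 promoters (25%), beside 7.66% of all promoters, and may share bases with the core. HERC6, OAS1, DDX58, ADAR, IFI35, SAMD9L, XAF1, and SP110 had no match to the core in any promoter of the table. A match is a description of the letters and not of binding. No promoter was found in the table for IFIT2, USP18, IFITM2, OAS2, OASL, DHX58, TRIM22, and MX2.

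The following 150 bases upstream of 5 members, outside annotated exons, were chosen because ISG15 gives the group its name, HERC5 was lower after CpG in 8 or more of the 9 replicate pairs, and IFI44, RTP4, and CMPK2 had the differences between lines or libraries described below. Each is printed 5′ to 3′ on the strand of its gene, and capitals mark the bases of GAAANNGAA or of its reverse complement. The windows of ISG15, HERC5, and RTP4 hold 3 matches each, the window of IFI44 holds 1, and that of CMPK2 holds 0, while another CMPK2 promoter in the table, chr2:6865770-6866069, holds 1.
ISG15, chr1:1013347-1013496, plus strand: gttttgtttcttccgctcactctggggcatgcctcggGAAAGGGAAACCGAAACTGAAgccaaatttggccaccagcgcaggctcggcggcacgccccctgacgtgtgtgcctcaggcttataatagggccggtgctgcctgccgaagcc
HERC5, chr4:88456969-88457118, plus strand: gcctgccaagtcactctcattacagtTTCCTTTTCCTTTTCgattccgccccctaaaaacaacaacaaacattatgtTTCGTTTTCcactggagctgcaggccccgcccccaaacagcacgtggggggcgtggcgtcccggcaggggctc
IFI44, chr1:78649639-78649788, plus strand: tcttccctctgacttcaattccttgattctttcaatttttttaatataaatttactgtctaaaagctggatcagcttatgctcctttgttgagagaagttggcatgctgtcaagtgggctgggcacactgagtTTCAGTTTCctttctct
RTP4, chr3:187368235-187368384, plus strand: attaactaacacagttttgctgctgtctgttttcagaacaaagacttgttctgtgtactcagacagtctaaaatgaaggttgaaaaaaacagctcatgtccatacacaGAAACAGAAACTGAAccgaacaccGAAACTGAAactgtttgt
CMPK2, chr2:6866636-6866785, minus strand: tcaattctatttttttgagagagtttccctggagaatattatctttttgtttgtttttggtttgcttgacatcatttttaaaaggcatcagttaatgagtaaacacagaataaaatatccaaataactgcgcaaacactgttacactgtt

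The library totals ranged from 20382943 to 67308932 counts. All 6 B cell markers examined, among them MS4A1 and CD79A, reached 1 CPM in every line, and their summed level was 4322 to 8803 CPM. The summed level of 4 T cell markers was at most 2.40 CPM, of 4 monocyte markers 1.91 CPM, of 4 plasmacytoid dendritic cell markers 2.06 CPM and of 3 NK cell markers 4.27 CPM. Of 3 fibroblast markers only COL1A1 reached 1 CPM, with a summed level of 5.22 to 81.7 CPM. Some libraries stood apart. Mitochondrial genes took 20.2% of the counts of unstimulated HG3 replicate 2 and 19.7% of those of CpG-stimulated MEC2 replicate 2, beside 2.82% to 9.28% in the other 16 libraries. The PCL12 replicates differed in genes that are high in MEC2. For this, 34 genes that are neither members nor immunoglobulin genes were used. They were chosen for reaching 20 CPM in MEC2 while staying at no more than 10% of the MEC2 level in PCL12 replicate 1. Their median level in unstimulated PCL12 was 30.0% of MEC2 in replicate 2 and 30.5% in replicate 3. After CpG it was 29.8% and 27.3%. Replicate 1 was used to choose these genes, so that its lower level is fixed by the choice. Whether the higher levels in replicates 2 and 3 are RNA of MEC2 or a difference between PCL12 samples was not tested, and comparisons of the members called in PCL12 are also given below with replicate 1 alone.

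In unstimulated cells most members were expressed in all 3 lines, and 12 members were called in at least 1 comparison between lines. The median level of the 41 members, on the log2(CPM + 0.5) scale, was 5.64 ± 0.26 in HG3, 5.72 ± 0.18 in MEC2, and 5.22 ± 0.44 in PCL12 (mean ± SD of 3 libraries). As CPM, the medians of the HG3 libraries were 61.2, 44.5, and 44.5, those of MEC2 were 59.4, 52.0, and 46.0, and those of PCL12 were 29.0, 52.2, and 32.8 in replicates 1, 2, and 3. The ranges of the 3 lines overlapped. These 12 passed an adjusted p of 0.05 in at least 1 comparison of unstimulated cells, and 30 passed it in none (edgeR quasi-likelihood test, Benjamini-Hochberg adjustment over all tested genes). The share of all tested genes that passed in at least 1 comparison was not counted. Shares for each comparison are given below.

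**Figure D1:**
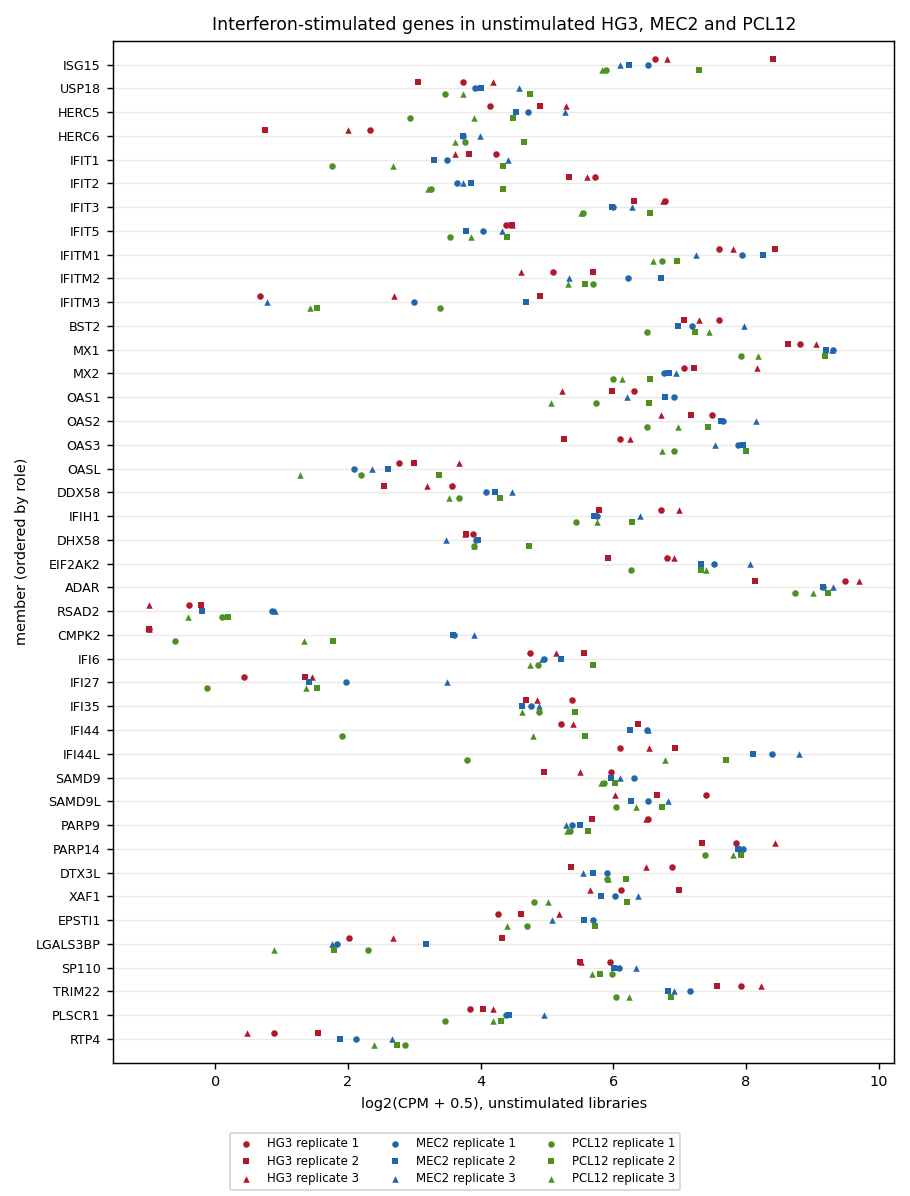
Level of each of the 42 members in the 9 unstimulated libraries, as log2(CPM + 0.5) on the horizontal axis, with one row per gene, a colour per line and a marker per replicate number. CMPK2 is at the lowest possible value in the 3 HG3 libraries, IFIT2 and TRIM22 are highest in HG3, and IFI44 and IFI44L are lowest in PCL12 replicate 1.

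Between unstimulated MEC2 and HG3, 6 members were higher in MEC2 (CMPK2, EIF2AK2, HERC6, DDX58, IFITM2, and OAS3) and 3 were lower (PARP9, IFIT2, and TRIM22). Of all tested genes, 4.81% were called higher and 4.97% lower. With library totals in place of TMM factors the split was 7 higher and 1 lower. The median log2 fold change (log2FC) of the 42 members was 0.01, with 21 members positive and 21 negative, beside a median of 0 over the 13990 genes whose mean reached 1 CPM. Between unstimulated PCL12 and HG3, 4 members were higher in PCL12 (CMPK2, RTP4, HERC6, and OAS3) and 5 were lower (PARP9, IFIT2, IFITM1, TRIM22, and MX2), while 4.87% of all tested genes were called higher and 4.57% lower. The median log2FC of the members was -0.22, with 26 of 42 negative, beside 0.02 over the genes at 1 CPM or more. With library totals the median of the members was 0.13 in MEC2 (16 negative, 26 positive) and -0.06 in PCL12 (22 negative, 20 positive), beside 0.11 and 0.17 over the genes at 1 CPM or more. Both comparisons share the 3 HG3 libraries. Between PCL12 and MEC2, 0 members were higher (1.53% of all genes), and 0 with DESeq2 and limma-voom in that direction. At an unadjusted p under 0.05 with edgeR, 0 were higher and 7 lower. The median log2FC of the members was -0.42, beside -0.01 over the genes at 1 CPM or more. It was negative for 33 of 42 members, beside 51.1% of those genes. With library totals the median of the members was -0.35 (32 negative, 10 positive), beside 0.03. One member, CMPK2, was lower in PCL12 than in MEC2 (0.524% of all genes).

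CMPK2, a mitochondrial nucleotide kinase induced by interferon, had 0 counts in all 3 unstimulated HG3 libraries. In unstimulated MEC2 it was at 11.6, 11.5, and 14.5 CPM in replicates 1, 2, and 3, and in unstimulated PCL12 at 0.160, 2.92, and 2.02 CPM. The MEC2 libraries were all above the PCL12 libraries, and PCL12 replicate 1 was the lowest of the 3. Set against a limit of 3 counts per HG3 library, which is 0.0999 CPM on average, CMPK2 was at least 125-fold higher in MEC2 (adjusted p 1.50e-06) and at least 17.0-fold higher in PCL12 (adjusted p 7.03e-05). Between PCL12 and MEC2 its log2FC was -2.88 (SE 0.74, adjusted p 0.0387). This call against MEC2 was kept in 18 of 28 other settings. It was lost with library totals, without both libraries rich in mitochondrial counts (adjusted p 0.0518), and without any one unstimulated MEC2 library, unstimulated PCL12 replicate 1 or 3, or CpG-stimulated HG3 replicate 3, MEC2 replicate 1, or PCL12 replicate 3 (adjusted p up to 0.128). With PCL12 replicate 1 alone the value was -6.23 (adjusted p 0.00281). Against HG3 CMPK2 remained called with PCL12 replicate 1 alone (adjusted p 0.0284), but the bound was then at least 1.60-fold, and with replicates 1 and 3 it was at least 10.9-fold. In those fits the lone PCL12 sample is assumed to vary like the other groups. RSAD2, which encodes the antiviral enzyme viperin and overlaps CMPK2 on the opposite strand at chr2:6865557-6898239, was at most 1.37 CPM in every unstimulated library. Its log2FC between MEC2 and HG3 was 2.31 (SE 1.13, adjusted p 0.230). Whether the authors' counting used strand is not given in the sources used here, and without strand the reads of the shared stretch cannot be told apart.

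Of the ISG15 system, HERC6 was called between lines, and ISG15 was not. HERC6, a HECT-type ubiquitin ligase related to the ISG15 ligase HERC5, was at 4.55, 1.19, and 3.53 CPM in unstimulated HG3, at 12.8, 12.8, and 15.4 CPM in MEC2, and at 13.1, 24.6, and 11.7 CPM in PCL12. Every MEC2 and PCL12 library was above every HG3 library. Its log2FC was 2.13 (SE 0.46, adjusted p 0.00230) in MEC2 and 2.40 (SE 0.46, adjusted p 7.35e-04) in PCL12, and 2.09 (adjusted p 0.0349) with PCL12 replicate 1 alone. Its neighbour HERC5 had 17.2, 29.1, and 38.6 CPM in HG3 and 25.7, 22.7, and 38.0 CPM in MEC2, ranges that overlapped (log2FC 0.03, SE 0.41, adjusted p 1). ISG15 itself was at 98.5, 337, and 112 CPM in HG3, 91.7, 75, and 68.5 CPM in MEC2, and 58.7, 156, and 56.5 CPM in PCL12. The high HG3 value belongs to the library rich in mitochondrial counts, and the log2FC between MEC2 and HG3 was -1.22 (SE 0.55, adjusted p 0.211) with that library and -0.40 (SE 0.52, adjusted p 0.751) without it. USP18, the protease that removes ISG15 and also restrains the interferon receptor, had ranges of 7.79 to 17.7 CPM in HG3, 14.5 to 23.3 CPM in MEC2, and 10.6 to 26.4 CPM in PCL12.

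Of the IFIT family, some of whose proteins bind viral RNA lacking host cap marks, IFIT2 was called lower in both other lines than in HG3. IFIT2 was at 52.5, 39.6, and 47.9 CPM in unstimulated HG3, at 12, 14, and 12.8 CPM in MEC2, and at 9.01, 19.6, and 8.75 CPM in PCL12. All 3 HG3 libraries were above all other unstimulated libraries. The log2FC was -1.85 (SE 0.34, adjusted p 4.59e-04) in MEC2 and -1.91 (SE 0.34, adjusted p 3.42e-04) in PCL12, and -2.36 (adjusted p 0.00135) with PCL12 replicate 1 alone. The other 3 family members had negative log2FC values in both comparisons and were not called: IFIT1 had -0.10 and -0.63, IFIT3 had -0.54 and -0.68, and IFIT5 had -0.39 and -0.48 for MEC2 and PCL12 against HG3.

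Of the membrane restriction factors, IFITM2 was called in MEC2 and IFITM1 in PCL12. Both belong to a family that blocks the fusion of incoming viruses. IFITM2 was at 33.6, 51.3, and 23.8 CPM in HG3 and at 73.9, 105, and 39.7 CPM in MEC2, ranges that overlapped, with a log2FC of 1.01 (SE 0.33, adjusted p 0.0492). This call was kept in 11 of 28 other settings. IFITM1 was at 192, 344, and 223 CPM in HG3, 244, 304, and 151 CPM in MEC2, and 106, 125, and 96.6 CPM in PCL12. The 3 PCL12 libraries were below all others, with a log2FC against HG3 of -1.21 (SE 0.33, adjusted p 0.0150), and of -0.90 (adjusted p 0.109) without unstimulated HG3 replicate 2. Without unstimulated PCL12 replicate 1 or 3 this call was lost as well. Against MEC2 the log2FC was -1.09 (SE 0.32, adjusted p 0.0869), and with the replicate number as a block IFITM1 was called lower (adjusted p 0.0477). IFITM3 ranged widely within each line, with 1.10, 29.4, and 6.0 CPM in HG3, 7.51, 25.1, and 1.23 CPM in MEC2, and 10.0, 2.39, and 2.21 CPM in PCL12. IFITM1, IFITM2, and IFITM3 are close copies of each other, so the division of reads among them is uncertain. BST2, or tetherin, which holds budding viruses at the membrane, lay between 90.7 and 249 CPM in the 9 libraries.

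Among the MX and OAS genes, the neighbours of called members did not pass the test. MX2, a GTPase that acts on viruses entering the nucleus, was at 134, 148, and 285 CPM in HG3, 108, 113, and 122 CPM in MEC2, and 63.3, 93.4, and 69.5 CPM in PCL12. The PCL12 libraries were below all HG3 and MEC2 libraries, with a log2FC against HG3 of -1.33 (SE 0.33, adjusted p 0.00789) and against MEC2 of -0.60 (adjusted p 0.495). The call against HG3 was lost without unstimulated HG3 replicate 3 (adjusted p 0.0926). MX1, the GTPase that acts broadly on RNA viruses and lies beside MX2 on chromosome 21, had group means of 460 ± 68.7 CPM in HG3, 618 ± 23.0 CPM in MEC2, and 373 ± 186 CPM in PCL12 (SD, n = 3). OAS3 is one of the 3 OAS genes in a row on chromosome 12, enzymes that answer double-stranded RNA by activating RNase L. It was at 67.8, 37.8, and 76.0 CPM in HG3, 234, 247, and 185 CPM in MEC2, and 121, 255, and 106 CPM in PCL12. All MEC2 and PCL12 libraries were above all HG3 libraries, with log2FC values of 1.87 (SE 0.35, adjusted p 5.10e-04) and 1.41 (SE 0.34, adjusted p 0.00759). With PCL12 replicate 1 alone the PCL12 value was 1.01 (adjusted p 0.173), and without unstimulated PCL12 replicate 2 the call was lost as well (adjusted p 0.108). For OAS1 and OAS2 the log2FC between MEC2 and HG3 was 0.76 (adjusted p 0.253) and 0.67 (adjusted p 0.265), and between PCL12 and HG3 it was -0.01 and -0.15 (adjusted p 1 and 0.895). The difference between OAS3 and its neighbours was not tested.

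Of the 5 RNA sensors and double-stranded RNA enzymes, 2 were called in MEC2. EIF2AK2, the kinase PKR that halts translation, was at 111, 60.0, and 120 CPM in HG3, 183, 160, and 267 CPM in MEC2, and 76.2, 159, and 168 CPM in PCL12. DDX58, now named RIGI, the sensor of short double-stranded RNA, was at 11.4, 5.31, and 8.66 CPM in HG3 and at 16.5, 18, and 21.8 CPM in MEC2. For both genes the lowest HG3 value came from the library rich in mitochondrial counts, and all MEC2 libraries were above all HG3 libraries. EIF2AK2 had a log2FC of 1.06 (SE 0.32, adjusted p 0.0345) and DDX58 of 1.15 (SE 0.36, adjusted p 0.0384), and without that library the values were 0.83 (adjusted p 0.144) and 0.92 (adjusted p 0.141). Both calls were also lost without unstimulated MEC2 replicate 3, and that of DDX58 without HG3 replicate 3 or any other unstimulated MEC2 library. IFIH1, or MDA5, the sensor of long double-stranded RNA, had 105, 54.5, and 127 CPM in HG3 and 43.0, 77.1, and 53.6 CPM in PCL12. Its log2FC between PCL12 and HG3 was -0.72 (SE 0.30, adjusted p 0.149), and -0.97 (SE 0.28, adjusted p 0.0261) without that HG3 library. ADAR, which edits double-stranded RNA, was at 716, 281, and 832 CPM in HG3, the same library again being the lowest. DHX58, a regulator of both sensors, lay between 10.7 and 26.1 CPM in the 9 libraries.

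TRIM22 and PARP9 were higher in HG3 than in both other lines, and RTP4 was higher in PCL12 than in HG3. TRIM22, an antiviral ubiquitin ligase that overlaps TRIM5 on the opposite strand, was at 242, 189, and 299 CPM in HG3, 143, 113, and 121 CPM in MEC2, and 65.4, 117, and 74.5 CPM in PCL12. The HG3 libraries were above all others, with log2FC values of -0.96 (SE 0.28, adjusted p 0.0243) in MEC2 and -1.51 (SE 0.28, adjusted p 4.56e-04) in PCL12, and -1.88 (adjusted p 0.00707) with PCL12 replicate 1 alone. The MEC2 call was lost with library totals (adjusted p 0.0556) and without unstimulated HG3 replicate 3 or MEC2 replicate 2 or 3 (up to 0.108). PARP9, which with its partner DTX3L strengthens interferon signalling, was at 91.1, 50.8, and 90.0 CPM in HG3, 41.1, 44.8, and 38.4 CPM in MEC2, and 40.1, 48.7, and 39.0 CPM in PCL12. Again HG3 was above both other lines in every library (log2FC -0.90, SE 0.25, adjusted p 0.0193 in MEC2, and -0.86, SE 0.25, adjusted p 0.0269 in PCL12). Both PARP9 calls were lost with library totals (adjusted p 0.0554 in MEC2), and without unstimulated HG3 replicate 1 or 3 or replicate 1 or 3 of the other line (up to 0.0942 in MEC2 and 0.118 in PCL12). DTX3L, which overlaps PARP9 on the opposite strand, was not called against MEC2 (log2FC -0.66, SE 0.28, adjusted p 0.155), and was called without the HG3 library rich in mitochondrial counts (log2FC -0.97, SE 0.22, adjusted p 0.00477). RTP4, a chaperone of receptors, was at 1.34, 2.42, and 0.895 CPM in HG3, 3.84, 3.18, and 5.81 CPM in MEC2, and 6.76, 6.20, and 4.74 CPM in PCL12. Its log2FC was 1.94 (SE 0.50, adjusted p 0.0113) in PCL12 and 1.48 (SE 0.49, adjusted p 0.0585) in MEC2. In MEC2 it was called with DESeq2, limma-voom, library totals, and the edgeR filter filterByExpr, and without the HG3 library rich in mitochondrial counts (log2FC 1.95, adjusted p 0.0160). The PCL12 call was lost without unstimulated HG3 replicate 3 (adjusted p 0.0684). With PCL12 replicate 1 alone, PARP9, RTP4, IFITM1, OAS3, and MX2 no longer passed the threshold against HG3, with adjusted p values of 0.275, 0.125, 0.207, 0.173, and 0.0899 and the same signs.

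A further group of members was not called between lines. SAMD9 and SAMD9L, neighbouring genes on chromosome 7 whose products restrict poxviruses, lay between 30.4 and 78.6 CPM and between 64.7 and 169 CPM in the 9 unstimulated libraries. PARP14, a mono-ADP-ribosyltransferase related to PARP9, lay between 162 and 345 CPM. SP110, a nuclear body protein, lay between 44.5 and 80.3 CPM. OASL, an OAS-like protein without the enzyme activity, lay between 1.93 and 12.3 CPM. IFI6, a mitochondrial and ER protein, lay between 26.2 and 51.1 CPM, IFI27 between 0.417 and 10.8 CPM, and IFI35 between 24.2 and 42.4 CPM. XAF1, a pro-apoptotic protein, lay between 27.5 and 127 CPM, EPSTI1 between 18.6 and 52.2 CPM, and PLSCR1, a phospholipid scramblase, between 10.5 and 30.7 CPM.

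In PCL12 the replicates differed from each other across the list. Unstimulated PCL12 replicate 2 had the highest of the 3 values for 34 of 41 members, whereas it had the highest value for 25.6% of all genes at 1 CPM or more. The median log2 ratio of its members over the other 2 libraries was 0.71, beside -0.03 for all those genes. After CpG the library of the same number was highest for 37 of 41 members (32.8% of all genes), with a median log2 ratio of 0.82. Replicate 2 was above the mean MEC2 level for 22 of 42 members, replicate 1 for 4, and replicate 3 for 3, beside 45.1%, 46.4%, and 53.1% of the genes at 1 CPM or more. The count in replicate 2 was near the share of all genes, and those in replicates 1 and 3 were below it. As a share of the MEC2 level, the median member was at 66.5%, 101%, and 63.7% in replicates 1, 2, and 3, while the 34 genes high in MEC2 stood at similar shares in replicates 2 and 3. For 14 members, ISG15 among them, unstimulated replicate 2 was above every MEC2 library and both other PCL12 libraries, beside 11.7% of the genes at 1 CPM or more. What sets replicate 2 apart was not tested.

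IFI44 and IFI44L, neighbouring genes on chromosome 1 that encode related proteins induced by interferon, differed widely among the PCL12 libraries. IFI44L was at 68.4, 122, and 92.8 CPM in HG3, 337, 275, and 444 CPM in MEC2, and 13.4, 206, and 109 CPM in PCL12. IFI44 was at 36.4, 82.0, and 41.4 CPM in HG3, 91.0, 75.4, and 91.3 CPM in MEC2, and 3.27, 47.3, and 27.2 CPM in PCL12. In PCL12 replicate 1 they stood at 3.80% and 3.81% of the MEC2 mean, below every other unstimulated library. With all 3 PCL12 replicates, the log2FC against MEC2 was -1.68 (SE 0.87, adjusted p 0.499) for IFI44L and -1.73 (SE 0.78, adjusted p 0.444) for IFI44, and neither was called against HG3 (adjusted p 0.969 and 0.467). With replicate 1 alone both were called, with -4.69 each against MEC2 (adjusted p 1.62e-05 for IFI44L and 3.91e-05 for IFI44) and -2.80 and -4.00 against HG3 (adjusted p 9.41e-04 and 7.54e-05).

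**Figure D2:**
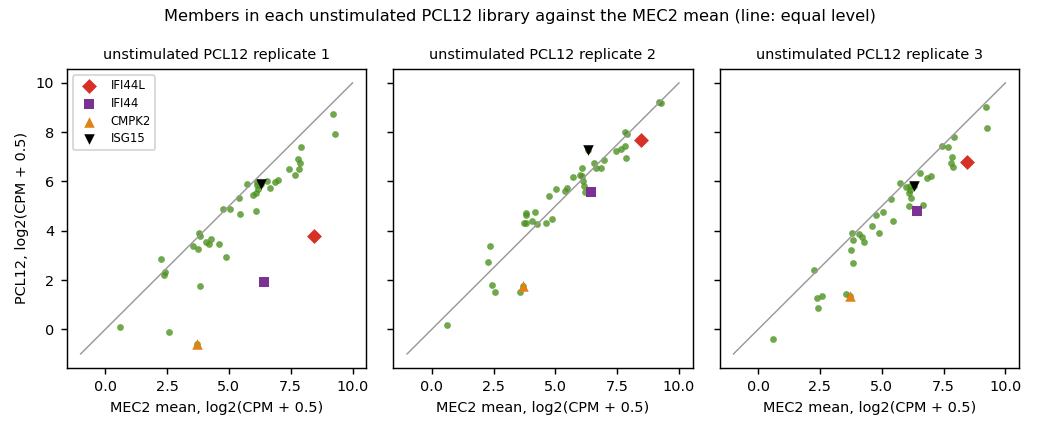
Each point is a member, with its mean level in unstimulated MEC2 on the horizontal axis and its level in 1 unstimulated PCL12 library on the vertical axis, both as log2(CPM + 0.5), and the line marks equal levels. IFI44 and IFI44L are far below the line in replicate 1 and closer to it in replicates 2 and 3, and 22 of 42 members are above the line in replicate 2.

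After CpG no member was called in any line. The question was whether 4 h of TLR9 stimulation moved the interferon response of each line. With edgeR, 0 of 42 members passed an adjusted p of 0.05 in HG3, 0 in MEC2, and 0 in PCL12, beside 0.00314%, 0.00314%, and 0% of all tested genes, so that few genes of any kind passed. DESeq2 and limma-voom also gave 0 members in each line. With the replicate number as a block, edgeR gave 0 members again, and the shares of all genes that passed were 0.135% for HG3, 0.333% for MEC2, and 0.0471% for PCL12. At an unadjusted p under 0.05, HG3 had 1 member higher and 0 lower (1.58% and 2.15% of all genes), MEC2 had 0 and 0 (1.51% and 0.944%), and PCL12 had 0 and 0 (1.37% and 0.718%). At the same unadjusted p with the block, HG3 had 2 members higher and 2 lower (2.21% and 1.37% of all genes), MEC2 had 0 and 7 (1.83% and 1.58%), and PCL12 had 0 and 1 (1.09% and 0.602%). The study defined a DEG by a nominal P under 0.01 with |log2FC| of at least 1. By this definition with edgeR, 1 member qualified in HG3 (0.496% of all genes), 0 in MEC2 (0.251%), and 0 in PCL12 (0.116%). The study applied it to limma results and reported more DEGs in each line than edgeR gave here. Averaged over the 3 lines, 0 members were called (0.00941% of all genes), with 1 higher and 1 lower at an unadjusted p under 0.05 (2.6% and 1.44% of all genes). DESeq2 and limma-voom called 0, and so did the block, with which 0.555% of all genes passed. At that unadjusted p the block gave 2 members higher and 11 lower, beside 2.72% and 1.82% of all genes, and the smallest adjusted p of a member was 0.269. The median SE of a member's log2FC was 0.34 in each line and 0.20 in the average. Changes of these sizes or smaller were not detectable. One SE is not the limit of detection, and with adjustment over all tested genes larger changes could be missed as well.

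The DEG in HG3 was CMPK2. It went from 0 counts in the 3 unstimulated libraries to 0.0262, 0.212, and 0.126 CPM after CpG, at least 1.21-fold over the limit of 3 counts per library (nominal P 0.00497, adjusted p 1, and with the replicate block nominal P 2.97e-04 and adjusted p 0.124, edgeR). The stimulated libraries held 1, 7, and 4 counts, of which the first is under the limit of 3 counts and cannot be told apart from 0. In MEC2 CMPK2 was at 10.3, 5.20, and 9.72 CPM after CpG and 11.6, 11.5, and 14.5 CPM without it (log2FC -0.57, SE 0.68). With limma-voom, and without the libraries rich in mitochondrial counts, 0 members met the definition in HG3. The responses of 2 lines were also compared directly: 0 members differed between MEC2 and HG3 (0% of all genes), 0 between PCL12 and HG3 (0.00314%), and 0 between PCL12 and MEC2 (0%). DESeq2, limma-voom, and the block gave 0 called members in each as well, and with the block 0.141%, 0.069%, and 0.0126% of all genes passed. At an unadjusted p under 0.05 the edgeR counts of members with a lower response were 1, 1, and 0 (1.79%, 1.44%, and 1.19% of all genes), in both cases CMPK2 with a smaller value than in HG3 (adjusted p with the block 0.0732 for MEC2 and 0.342 for PCL12).

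More members had a negative than a positive log2FC after CpG, but in HG3 and PCL12 this depended on single libraries. The log2FC was negative for 26 of 42 members in HG3, 35 in MEC2, 27 in PCL12, and 34 in the average over the lines, beside 46.9%, 49.0%, 52.9%, and 49.5% of the genes at 1 CPM or more. The median of the members was -0.08 in HG3, -0.28 in MEC2, -0.07 in PCL12, and -0.12 in the average. With a single library left out this median ran from -0.10 to 0.04 in HG3 and from -0.38 to -0.16 in MEC2. In PCL12 it ran from -0.48 to 0.22, and in the average from -0.24 to -0.02. With library totals 22 members were negative in HG3 (median -0.02), 36 in MEC2, and 25 in PCL12, and the average gave 34 under each of TMM, RLE, library totals, and DESeq2. With a single library left out, the negative members numbered 31 to 36 in MEC2, 19 to 32 in HG3, 9 to 38 in PCL12, and 24 to 37 in the average. Fewer than 22 were negative in HG3 without unstimulated replicate 1 or 3 (19 and 20), and in PCL12 without CpG-stimulated replicate 1 or 3 (9 and 21) or unstimulated replicate 2 (9). By replicate pair, the median log2 ratio of the 41 members was -0.14, 0.18, and -0.19 for HG3, -0.21, -0.41, and -0.11 for MEC2, and -0.19, 0.05, and -0.10 for PCL12. The medians of all genes in the same pairs were -0.04, 0.14, and -0.02 for HG3, -0.05, 0.05, and -0.02 for MEC2, and 0.00, 0.02, and -0.07 for PCL12. The lowest and the highest member median belong to the pairs that hold a library rich in mitochondrial counts, and the part of that difference in RNA in these medians was not tested. Over the 3 pairs the mean was -0.05 ± 0.20 in HG3, -0.24 ± 0.15 in MEC2, and -0.08 ± 0.12 in PCL12 (SD, n = 3). With 1 pair left out the mean of HG3 ran from -0.16 to 0.02 and was positive without pair 3. That of MEC2 ran from -0.31 to -0.16, and that of PCL12 from -0.15 to -0.03.

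**Figure D3:**
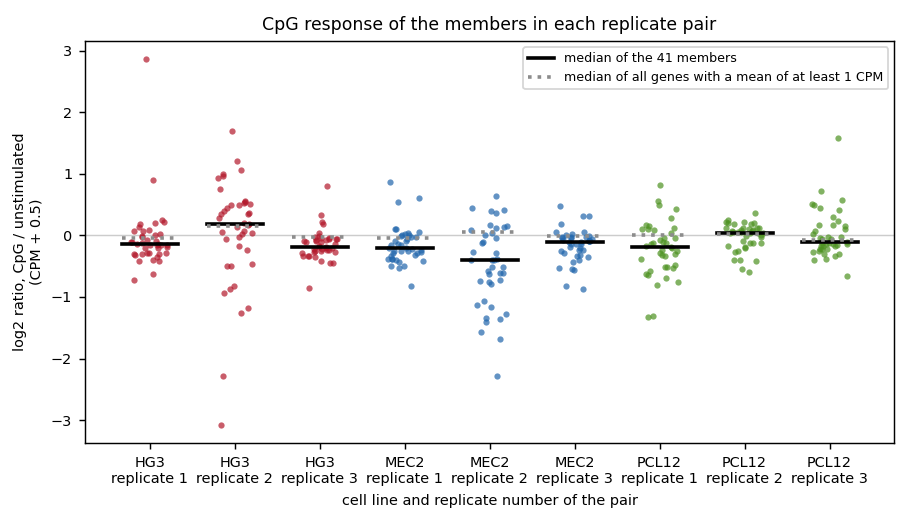
Log2 ratio of CpG-stimulated over unstimulated CPM (0.5 added to each) for 41 members in each of the 9 replicate pairs, with the median of the members as a solid bar and that of all genes at 1 CPM or more as a dotted bar. The member median is below 0 in 7 of 9 pairs, lowest in MEC2 pair 2 and highest in HG3 pair 2.

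By role, the averaged log2FC was negative for all 4 IFIT genes (-0.39 to -0.06), both MX genes (-0.21 and -0.04), all 5 IFI genes (-0.47 to -0.06), and both SAMD9 genes (-0.10 and -0.08), and none of these values passed the test. With a single library left out, IFI44, IFI44L, IFIT3, MX1, SAMD9, and SAMD9L each turned positive in at least 1 case, and without unstimulated HG3 replicate 2 IFI44 and IFI44L were at 0.09 and 0.02. OAS1 was lower in all 9 pairs, and HERC5, IFIT2, MX2, and SP110 in 8 of 9, so 5 of 41 members were lower in at least 8 pairs, beside 3.86% of all genes. None of the 41 was higher in at least 8 pairs, beside 2.77% of all genes. OAS1 went from 79.2, 62.4, and 37.1 CPM to 59.3, 59.9, and 31.8 CPM in HG3, from 120, 109, and 73.4 to 105, 64.2, and 64.5 CPM in MEC2, and from 52.9, 92.3, and 32.8 to 31.0, 69.7, and 30.0 CPM in PCL12. The ranges before and after stimulation overlapped in each line. The averaged log2FC of OAS1 was -0.35 (SE 0.22, nominal P 0.124, adjusted p 1), and with the block its nominal P was 0.00336 and its adjusted p 0.286. IFIT2 in MEC2 went from 12, 14, and 12.8 CPM to 8.99, 8.99, and 8.74 CPM, ranges that did not overlap, with a log2FC of -0.54 (SE 0.34, adjusted p 1, block adjusted p 1). In HG3 it was at 52.5, 39.6, and 47.9 CPM before and 43.1, 51.1, and 44.2 CPM after CpG, which overlapped.

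The positive values were fewer. IFIH1 had the highest averaged log2FC after CMPK2, at 0.26 (SE 0.17, adjusted p 1, block adjusted p 0.647), and was higher in 7 of 9 pairs. In MEC2 it went from 53.5, 52.0, and 84.1 CPM to 77.8, 57.4, and 105 CPM, and in PCL12 from 43.0, 77.1, and 53.6 CPM to 61.0, 83.9, and 63.3 CPM. Both pairs of ranges overlapped. ISG15 in HG3 went from 98.5, 337, and 112 CPM to 104, 141, and 98.9 CPM, and the pair ratios were 0.07, -1.25, and -0.18 on the log2 scale, the large one resting on the library rich in mitochondrial counts. LGALS3BP, a secreted glycoprotein, showed the same dependence, with 3.56, 19.4, and 5.89 CPM before and 3.50, 3.60, and 6.91 CPM after CpG in HG3.

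The members with the smallest P in each line were not called. In HG3, after CMPK2, these were LGALS3BP (log2FC -1.04, edgeR nominal P 0.0905), described above, and XAF1 (log2FC -0.64, edgeR nominal P 0.135). XAF1 went from 69.1, 127, and 49.5 CPM to 51.4, 69.5, and 37.1 CPM, ranges that overlapped. The value of 127 CPM is from the HG3 library rich in mitochondrial counts, and without that library the log2FC of XAF1 was -0.14. In MEC2, after IFIT2, IFITM2 went from 73.9, 105, and 39.7 CPM to 76.1, 35.1, and 45.1 CPM (log2FC -0.48, nominal P 0.148). IFITM1 went from 244, 304, and 151 CPM to 245, 119, and 145 CPM in MEC2 (log2FC -0.45, nominal P 0.169). The MEC2 library rich in mitochondrial counts held the lowest stimulated value of both. In PCL12, SP110 went from 62.9, 55.4, and 50.5 CPM to 40.5, 41.6, and 45.9 CPM, ranges that did not overlap (log2FC -0.40, nominal P 0.118, adjusted p 1). Between the responses of the lines, HERC6 after CpG was at 2.77, 4.96, and 6.53 CPM in HG3, 8.96, 10.6, and 14.3 CPM in MEC2, and 10.3, 26.7, and 11.4 CPM in PCL12, and the response of MEC2 less that of HG3 was -0.89 (nominal P 0.169). DDX58 after CpG was at 9.16, 11.9, and 20.2 CPM in MEC2 and at 8.81, 11, and 8.96 CPM in HG3. Its difference was -0.63 (edgeR nominal P 0.217). Without the HG3 library rich in mitochondrial counts, the differences of HERC6 and DDX58 were both smaller. The CpG log2FC was then 0.25 in HG3 and -0.29 in MEC2 for HERC6, and -0.04 and -0.46 for DDX58. IFI6 had a response in PCL12 less that in MEC2 of 0.61 (nominal P 0.195), from 28.8, 51.1, and 26.4 to 25.1, 55.6, and 37.4 CPM in PCL12 and from 30.6, 36.4, and 29.9 to 32.8, 13.9, and 23.7 CPM in MEC2. With all 18 libraries, each of these differences had an edgeR adjusted p of 1.

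**Figure D4:**
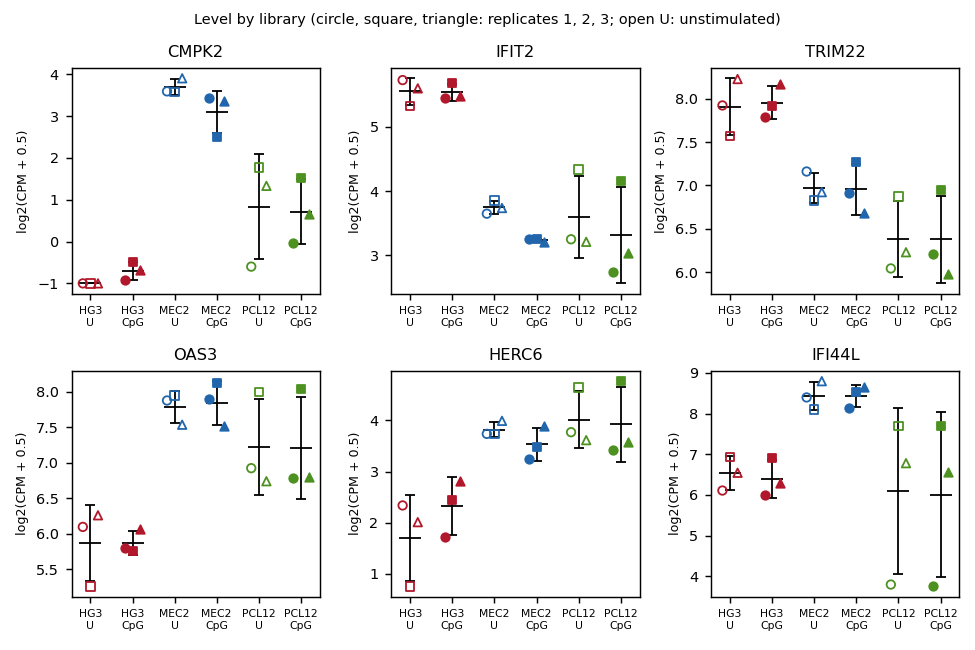
Level of 6 members in the 18 libraries as log2(CPM + 0.5), with open markers for unstimulated and filled markers for CpG-stimulated samples, and bars for the mean ± SD of the 3 log2 values of each group. The members shown were chosen for differences between lines or libraries: IFIT2 and TRIM22 are highest in HG3, OAS3 and HERC6 are lowest there, and PCL12 replicate 1 is the lowest for IFI44L.

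The upstream genes of the pathway were read from lists of their own. Of 21 interferon genes in the table, 4 were at 0 in all libraries and 12 were tested, and the highest group mean was 1.97 CPM, for IFNG in CpG-stimulated MEC2. None of the 12 was called after CpG in any line or in the average (1 at an unadjusted p under 0.05 in HG3, 0 in MEC2, PCL12, and the average). IFNA6 was at 0.374, 0.671, and 0.921 CPM in unstimulated HG3 and at 0 in MEC2 and PCL12, at least 6.69-fold and 7.20-fold higher in HG3 (adjusted p 0.0235 and 0.0225). The interferon alpha genes are close copies of each other, so their reads are uncertain. Of 6 receptor genes, IFNLR1, the interferon lambda receptor chain, was higher than in HG3 in MEC2 (log2FC 4.40, adjusted p 1.91e-07) and PCL12 (log2FC 5.68, adjusted p 7.39e-09). IFNGR1, the interferon gamma receptor chain, was lower (log2FC -1.29, adjusted p 4.29e-04, and log2FC -2.15, adjusted p 6.60e-07). JAK1, a kinase bound to the receptors, was higher in MEC2 than in HG3 (log2FC 0.99, adjusted p 0.0347). TLR9, the receptor for CpG, was at most 0.203 CPM in any library. Of 19 genes from nucleic acid sensing to IRF factors, 2 were higher and 4 lower in MEC2 than in HG3, and 2 were higher and 2 lower in PCL12. TMEM173, or STING, was lower in both lines (log2FC -3.59 and -3.28, adjusted p 1.74e-05 and 4.39e-05). Of 8 genes that restrain the pathway, SOCS1 and SOCS3 were lower in MEC2 than in HG3 (log2FC -2.02 and -3.97, adjusted p 6.53e-05 and 0.00613), and SOCS1 was also lower in PCL12 than in HG3 (log2FC -1.53, adjusted p 0.00131). SOCS3 had a log2FC of -2.60 in PCL12 (adjusted p 0.0518). With PCL12 replicate 1 alone, IFNLR1, IFNGR1, and TMEM173 remained called against HG3 (log2FC 6.02, -2.09, and -2.35, adjusted p 2.91e-07, 0.00293, and 0.0309), IFNA6 and SOCS1 did not (adjusted p 0.342 and 0.109), and of the sensing genes 1 was higher and 1 lower. After CpG, 0 genes of these lists were called in any line or in the average, and few passed an unadjusted p of 0.05. In the average, 5 sensing genes and 1 JAK and ISGF3 gene were higher and 1 gene that restrains the pathway was lower, beside 2.6% and 1.44% of all genes. In MEC2, 4 sensing genes and 1 JAK and ISGF3 gene were higher (1.51% of all genes), and in HG3 and PCL12 0 genes of these lists other than the interferons passed.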

How the data were processed

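RNA was sequenced from 18 libraries of the CLL lines HG3, MEC2, and PCL12 (Lexogen stranded QuantSeq, per the labels). The deposited values are raw read counts per gene symbol, which the authors made with Trimmomatic, STAR, and featureCounts on hg38, with FastQC and MultiQC for quality. The libraries were stranded, and the versions, the annotation release, and the strand setting of the counting are not given in the sources used here. Total counts per library ranged from 20382943 to 67308932.

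Genes with at least 10 counts in all (31872) were tested in R 4.3.3 with edgeR 4.0.16 (TMM scaling, robust quasi-likelihood fit, 1 mean for each of 6 groups), with Benjamini-Hochberg adjustment over all tested genes and a threshold of 0.05. CPM are scaled with TMM factors, and log2 levels and pair ratios use a pseudocount of 0.5. DESeq2 1.42.0, limma-voom (limma 3.58.1), other scalings and filters, single libraries left out, PCL12 replicates 2 and 3 left out, and the replicate number as a block were alternatives. The sets without both PCL12 libraries of replicate 2, and without both libraries rich in mitochondrial counts, were added after seeing the data. The procedure was tested on simulated data.

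The design text states that a replicate series holds 1 stimulated and 1 unstimulated sample, so the numbers pair samples within a line. Deviations from the group means of same-numbered samples correlated between -0.08 and 0.33. In HG3 and PCL12 each unstimulated sample correlated best with the stimulated sample of its own number. In MEC2 this held for replicate 3 only. Unstimulated MEC2 replicate 1 had 0.03 with its own number and 0.20 with number 2. Replicate 2 had -0.08 with its own number and 0.23 with number 1. The MEC2 pair ratios and the block rest on the numbers as given. Between lines, the correlation of same-numbered unstimulated samples was between -0.11 and 0.20. The limit for a gene with no counts is 3 counts per library, and it covers counting error only. All 42 members are accounted for, with values in every library for those called in a comparison or, where none was called, for the 3 with the smallest P, and genes of the pathway lists are named where they were called. HERC5, MX1, and other neighbours of called members, members lower in at least 8 of 9 pairs, IFNG, and TLR9 were given values after those were seen. The members and lists were chosen with earlier results of these data known. Promoter sequences came from RefSeq (GRCh38.p14). Some results of the pathway and marker lists are not reported here.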

Additional observations from a re-analysis of the deposited data

How the results depend on the processing

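Of the values of named members between unstimulated lines, 169 of 190 kept their call under other settings and 297 of 342 with a single library left out. No alternative gave a called member after CpG, the replicate block included, and against HG3 the block left 9 members called in MEC2 and 9 in PCL12. Members lower in MEC2 than in HG3 numbered 3, but 1 with library totals and 5 without both libraries rich in mitochondrial counts. Members higher in PCL12 than in HG3 numbered 4, but 2 with PCL12 replicate 1 alone and 2 without both PCL12 libraries of replicate 2, and those lower numbered 5, but 11 with no filter. Members lower in PCL12 than in MEC2 numbered 1, but 2 with DESeq2, 2 with the replicate block (CMPK2 and IFITM1), 2 without both PCL12 libraries of replicate 2, 3 with PCL12 replicate 1 alone, 4 with no filter, and 0 with library totals or without both libraries rich in mitochondrial counts. The DEG in HG3 numbered 1, but 0 with limma-voom and 0 without those libraries. With a single library left out, the counts were 4 to 7 higher and 1 to 4 lower in MEC2 than in HG3 (1 without unstimulated replicate 3 of HG3 or of MEC2), 3 to 4 higher and 3 to 7 lower in PCL12 than in HG3 (3 without unstimulated HG3 replicate 3 or PCL12 replicate 1 or 3), 0 to 1 lower in PCL12 than in MEC2 (0 without HG3 CpG replicate 3, MEC2 CpG replicate 1, unstimulated MEC2 replicate 1 or 2, PCL12 CpG replicate 3, or unstimulated PCL12 replicate 1 or 3), and 0 to 1 for the DEG in HG3 (0 without CpG replicate 2 or 3 or any unstimulated replicate). After CpG, of the log2FC values of the members with the smallest P, 3 changed sign with a single library left out, and over all members up to 18 did in a line. The 3 were LGALS3BP in HG3 (-1.4538 to 0.0042, positive without unstimulated replicate 2), OAS1 in PCL12 (-0.967 to 0.0232, positive without unstimulated replicate 2), and the IFIT3 response of PCL12 less that of MEC2 (-0.0804 to 0.8944, negative without PCL12 CpG replicate 2). Against HG3, the median log2FC of the genes at 1 CPM or more was 0.11 for MEC2 and 0.17 for PCL12 with library totals, beside 0 and 0.02 with TMM. The cause of these changes was not tested.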
